A study of Mus musculus with 6 samples.

Results

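One comparison was examined across the genes of the array: a mouse kidney clamped for 45 min and taken at day 3, set against a kidney clamped for 0 min and taken at day 3. The study holds 6 Affymetrix expression arrays, 2 of which enter this comparison; they cover clamps of 0, 45 and 60 min on day 1 and on day 3, with 1 array each. Male mice of the strain FVB/N were used, aged 6 to 8 weeks and weighing 22 to 26 g. All groups, the 0 min kidneys included, shared pentobarbital anaesthesia, a warmed table, a flank incision that exposed the renal pedicle, and suture of the wound. In the clamped groups the pedicle of 1 kidney was closed with microclamps and then released, which stops and restores the blood flow (ischemia-reperfusion injury). The wider aim was to block the inflammatory cytokine TNF after the injury, and TNF-blocked kidneys are not analysed here. With 1 array a side there was no replicate check, so the sizes of differences are described and none was tested. Whether an array holds RNA of 1 animal or a pool is not stated, and the differences include whatever separates 2 kidneys of the same treatment.

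As background, the S3 segment of the proximal tubule, in the outer stripe of the outer medulla, takes most of the damage when renal blood flow returns. Surviving tubule cells lose part of their transport program, switch on injury genes such as Havcr1 and Lcn2, send out chemokines under NF-kB control, divide to replace lost cells, and later regain their transporters. Macrophages and matrix-making fibroblasts follow, and a repair that does not end leads on to fibrosis.

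Intensities were compared as log2(intensity + 16), 1 probe set per gene, and differences are given on that scale as 45 min minus 0 min. Of 18193 genes with a symbol of their own, 12735 passed a filter on low intensity. All 6 arrays had the same trimmed mean (500.003), and their median intensities lay between 81.4 and 95.3. The 3′ probe set of the actin control exceeded the 5′ one, a gap that widens as RNA breaks down, by 1.03 (log2) in the 45 min kidney of day 3 and by 0.769 in the 0 min kidney of day 3. For Gapdh this log2 ratio was -0.326 after 45 min and -0.368 after 0 min. The part of RNA quality in the differences below was not tested.

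Among the 12735 genes, 185 (1.45%) were at least 2-fold higher and 100 (0.785%) at least 2-fold lower in the 45 min kidney at day 3, which makes 285 genes (2.24%) past 2-fold either way. The split depends on the scaling: after quantile normalization 155 genes were higher and 130 lower, and after centring each array on its median 131 were higher and 141 lower. Median centring lowered the median of all genes to -0.12, from -0.03 as deposited. At day 1 the 45 min kidney had 453 genes (3.56%) 2-fold higher and 135 (1.06%) 2-fold lower than the 0 min kidney of day 1. The 60 min kidney of day 3 had 958 (7.52%) higher and 295 (2.32%) lower than the same 0 min kidney of day 3. The 0 min kidneys of day 3 and day 1 themselves differed by 2-fold in 218 genes (1.71%) that were higher at day 3 and 175 (1.37%) that were lower. The standard deviation over genes was 0.378 for 45 min minus 0 min at day 3, which is below the 0.418 between the 0 min kidneys of the 2 days.

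**Figure D1:**
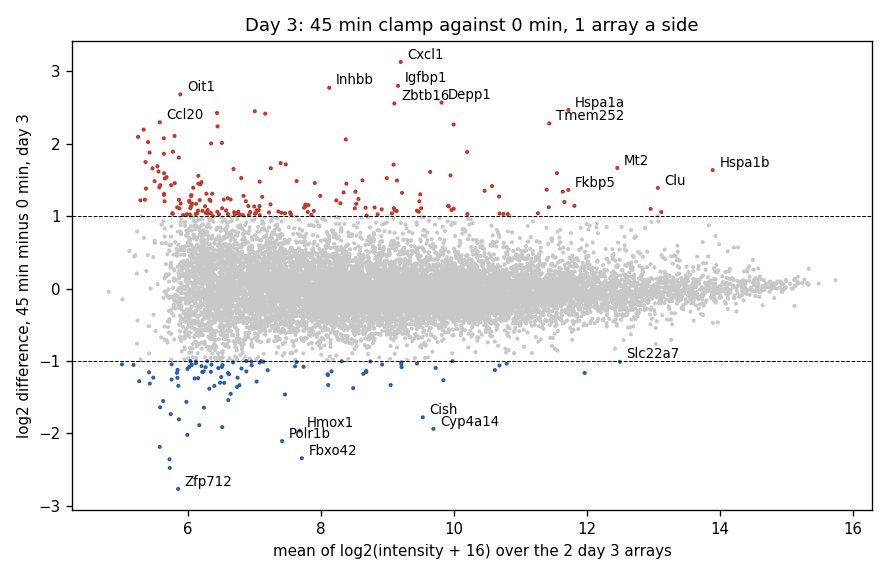
Each of the 12735 genes is plotted by its mean log2(intensity + 16) over the 2 day 3 arrays (x axis) and its log2 difference, 45 min minus 0 min (y axis). Red points are the 185 genes at least 2-fold higher, blue points the 100 at least 2-fold lower, and dashed lines mark 2-fold; of genes reaching an intensity of 1000, 38 were on the higher side and 10 on the lower side.

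Brightness set how much a single gene can carry. Of the 185 higher genes, 85 had an intensity of at least 200 on the brighter of the 2 arrays and 38 reached 1000. Of the 100 lower genes, 34 reached 200 and 10 reached 1000. Among the higher genes 26 lay below an intensity of 16 in the 0 min kidney, and among the lower genes 15 lay below 16 in the 45 min kidney. Other probe sets of the same gene gave a second reading in part of the cases. For 49 of the 185 higher genes other probe sets passed the filter, and in 45 of these all of them were also higher. For the lower genes it was 21 of 100, with all others also lower in 13.

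The 4 arrays outside the comparison show on which side a gene stood apart. Of the 185 higher genes, 55 had their highest intensity of all 6 arrays in the 45 min day 3 kidney, while 117 had their lowest in the 0 min day 3 kidney, and 22 had both. Over all 12735 genes the 45 min day 3 array was the highest of the 6 in 10.7% and the 0 min day 3 array the lowest in 16.7%. When the 0 min kidney of day 1 was put in the place of that of day 3, 62 of the 185 remained 2-fold higher and 39 of the 100 remained 2-fold lower. Of the 100 lower genes, 78 had their lowest intensity in the 45 min day 3 kidney and 43 their highest in the 0 min day 3 kidney.

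Injury genes of the tubule were still higher at day 3. Of 33 tubular injury markers compared, 32 were higher in the 45 min kidney, 9 of them by 2-fold or more and 0 lower by 2-fold, and their median difference was 0.69. Over all genes the median was -0.03, and 45.5% were higher by any amount. Of the 33, 0 had its highest intensity in the 45 min day 3 kidney, and 21 had their lowest in the 0 min day 3 kidney. Havcr1, which encodes the proximal tubule injury receptor KIM-1, had an intensity of 2548 after 45 min, against 1242 after 0 min. Its intensity was 11483 on the 60 min array of day 3 and 599, 4216 and 13011 after 0, 45 and 60 min at day 1. Both day 3 values thus lie below all clamped kidneys of the other groups, and the 0 min kidney of day 3 lies above the 0 min kidney of day 1. Lcn2, which encodes the iron-siderophore-binding protein NGAL, had 1423 after 45 min, against 640.1 after 0 min. Its other intensities were 6621 on the 60 min array of day 3 and 1273, 3911 and 10746 after 0, 45 and 60 min at day 1, so the 45 min kidney of day 3 was close to the 0 min kidney of day 1.

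Clu, the secreted chaperone clusterin, was the brightest of the markers past 2-fold, with 13877 after 45 min, against 5289.5 after 0 min (2.62 times). Its other intensities were 21796 on the 60 min array of day 3 and 7217, 14705 and 23696 after 0, 45 and 60 min at day 1. Here the 45 min kidneys of both days lay side by side and above both 0 min kidneys. The probe set used differed by 1.39, and the other Clu probe sets by 1.43, 1.46 and 1.52. Krt20, an intermediate filament of stressed epithelium, had 173 after 45 min, against 49.8 after 0 min, and its difference of 1.53 at day 3 is close to that of 1.58 at day 1. Tnfrsf12a, the receptor of the cytokine TWEAK, had 2236 after 45 min, against 868 after 0 min, and at day 1 it had 984 after 45 min, against 1086 after 0 min. At day 3 its other probe set differed by 0.68 (the one used by 1.35). Cldn4, a tight junction claudin, had 927 after 45 min, against 362 after 0 min, and the matricellular growth regulators Ccn2 and Ccn1 differed by 1.19 and 1.03. Sprr2f, a cornified envelope gene that stood at 2202 after 60 min at day 3, had only 81.7 after 45 min, against 58.9 after 0 min.

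Targets of NF-kB, the transcription factor that TNF activates, were higher as a group. Of 26 TNF and NF-kB targets 24 were higher in the 45 min kidney, 9 by 2-fold, with a median of 0.79 at day 3. The median at day 1 was 0.38, and at day 3 it was 0.49 when the 0 min kidney of day 1 was the control. The chemokine Cxcl1, which attracts neutrophils, had the largest difference of all genes named by rule. Its intensity was 1723 after 45 min, against 183 after 0 min (9.41 times), and elsewhere it was 2255 on the 60 min array of day 3 and 248, 356 and 1759 after 0, 45 and 60 min at day 1. The 45 min kidney of day 3 thus stood with the 60 min kidneys, while the 45 min kidney of day 1 stood near the 0 min kidneys. The other Cxcl1 probe sets differed by 2.57 and 1.44 (the one used by 3.13).

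Cxcl2, a second neutrophil chemokine, had 173 after 45 min, against 24.2 after 0 min, and 128 after 45 min, against 46.0 after 0 min at day 1. Ccl20, the ligand of the receptor CCR6, had 89.8 after 45 min, against 5.57 after 0 min, and its 0 min intensity was as low at day 1, where it had 145 after 45 min, against 5.73 after 0 min. Ccl20 and Cxcl2 were therefore above both 0 min kidneys on both days. Socs3, a feedback inhibitor of cytokine receptors, had 972 after 45 min, against 286 after 0 min, and its other probe sets differed by 1.08 each. The transcription factors Cebpd and Cebpb differed by 1.30 and 1.12, the adhesion molecule Vcam1 by 1.10 and the chemokine Cxcl10 by 1.05. Other classic members of the same list differed less: the NF-kB inhibitor Tnfaip3 differed by 0.20, the adhesion molecule Icam1 by 0.30, the cytokine Il1b by 0.13 and the mitochondrial superoxide dismutase Sod2 by -0.11.

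The promoters of the 3 chemokines with the largest differences are shown because they carry the letters that NF-kB binds. Each line gives the 150 bases before the transcription start, 5′ to 3′ on the gene's strand, from RefSeq on GRCm38.p6, and capitals mark every match to GGNNNTTCC on either strand. The stretch of Cxcl1 is chr5:90891095-90891244, that of Cxcl2 chr5:90903749-90903898 and that of Ccl20 chr1:83116616-83116765, all on the + strand.
Cxcl1: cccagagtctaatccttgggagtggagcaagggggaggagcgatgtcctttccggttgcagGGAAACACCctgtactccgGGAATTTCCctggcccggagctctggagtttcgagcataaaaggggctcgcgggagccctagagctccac
Cxcl2: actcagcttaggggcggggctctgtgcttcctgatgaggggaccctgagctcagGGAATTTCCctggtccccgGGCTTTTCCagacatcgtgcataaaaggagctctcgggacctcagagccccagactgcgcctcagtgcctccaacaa
Ccl20: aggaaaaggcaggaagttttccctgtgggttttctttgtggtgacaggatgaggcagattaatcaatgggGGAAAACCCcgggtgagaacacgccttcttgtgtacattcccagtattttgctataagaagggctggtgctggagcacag
In the 250 bases before the start, 13 of the 20 NF-kB targets with a promoter in the table held a match (65.0%), against 21.3% of 10269 genes and 23.7% of the 135 genes that were 2-fold higher and had a promoter. The same letters stood in 6 of the 11 heat shock genes with a promoter (54.5%), so a high share was not found in the NF-kB targets alone. The AP-1 letters TGANTCA stood in 16 of those 135 promoters (11.9%), against 5.68% of all. AP-1 was 1 of several motifs searched in the 135, and none was tested. TGACGTCA (CRE) stood in 4.44%, against 2.81% of all, and CACGTG (E-box) in 8.89%, against 9.83%. GAAANNGAA (ISRE core) stood in 10.4%, against 7.41%, and TTATGTAA (D-box) in 2.22%, only 3 promoters, against 0.613%. A match is a run of letters and does not show binding.

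The components of TNF signalling differed little. Of 22 compared, 1 was 2-fold higher, the adaptor Traf1 with 94.4 after 45 min, against 31.4 after 0 min, and their median was 0.06 (-0.03 after median centring). The other Traf1 probe set differed by 0.52. Tnf itself was below the filter, with 36.3 after 45 min, against 18.4 after 0 min. The receptor gene Tnfrsf1a had 942 after 45 min, against 751 after 0 min, and Tnfrsf1b had 169 after 45 min, against 164 after 0 min. The subunits of the non-canonical NF-kB branch, Nfkb2 and Relb, differed by 1.00 and 0.87, and the other Nfkb2 probe set by 0.23. Rhbdf2, the lowest of the list, went the other way and differed by -0.74. Among the 22 components, 14 were higher and 8 lower after 45 min at day 3.

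Markers of myeloid cells were moderately higher. The 25 monocyte and macrophage markers on the array summed to 32107 in the 45 min kidney and 22633 in the 0 min kidney at day 3, and the 23 past the filter had a median difference of 0.39, against 1.08 with the 0 min kidney of day 1 as control. The same sum was 20953 after 45 min and 12064 after 0 min at day 1, and 82380 after 60 min at day 3. In whole tissue, more cells of a type and more RNA per cell cannot be told apart. Cd14, a co-receptor for bacterial lipopolysaccharide, had 1009.7 after 45 min, against 476 after 0 min, and the membrane protein Ms4a7 had 251 after 45 min, against 116 after 0 min. The lysozyme gene Lyz2 had 5504 after 45 min, against 3124 after 0 min, while Cd68 (182 against 195) and the F4/80 gene Adgre1 (327 against 306) had nearly the same intensity after 45 min as after 0 min. Ccr2, a monocyte chemokine receptor, differed by -1.28 on its brightest probe set, but the 2 others past the filter differed by 0.24 and 0.34.

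All 8 neutrophil markers compared were higher, 2 of them by 2-fold, and those 2 were dim: the lectin receptor Clec4d with 126 after 45 min, against 44.8 after 0 min, and the gelatinase Mmp9 with 141 after 45 min, against 61.4 after 0 min. The 13 neutrophil markers on the array summed to 2102 after 45 min and 1342 after 0 min. Of 15 complement and acute phase genes 4 were 2-fold higher, with a median of 0.72, against 0.36 with the 0 min kidney of day 1 as control. They were Osmr (1.14), the receptor of oncostatin M, Cfi (1.11), a complement protease, Cp (1.04), the copper protein ceruloplasmin, and Saa1 (1.03), an acute phase apolipoprotein that stood at 74.2 after 45 min and 28.3 after 0 min (its difference was -1.78 with the 0 min kidney of day 1 as control). Other probe sets past the filter differed by 0.65 for Osmr, by -0.36 to 1.35 for Cp and by 0.05 for Saa1.

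**Figure D2:**
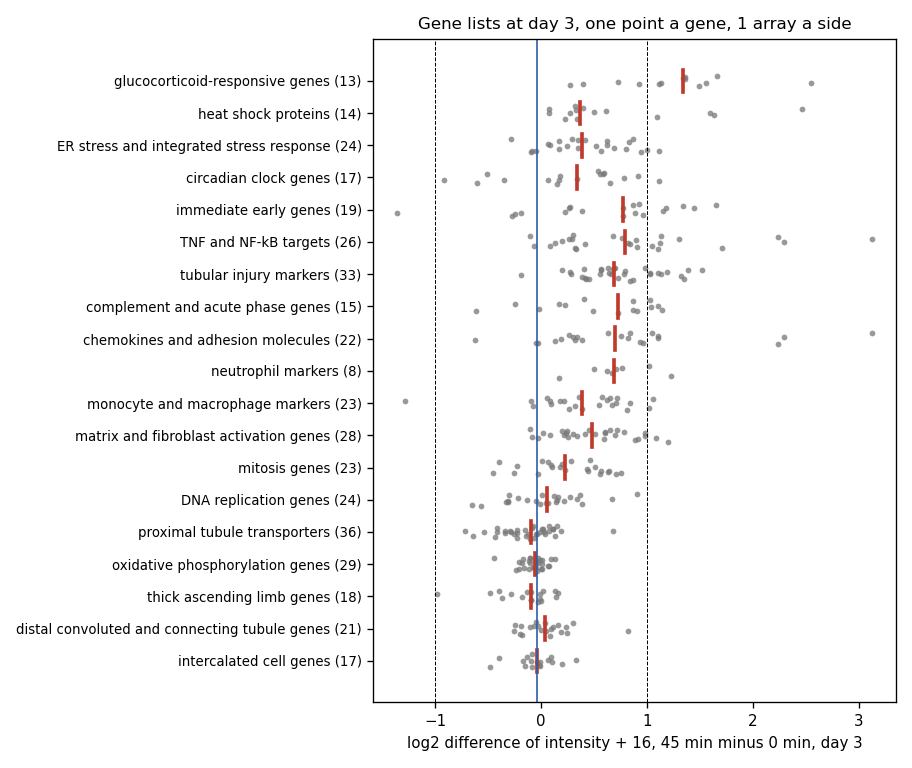
Each grey point is 1 gene of a list (rows, with the number compared) by its log2 difference at day 3, 45 min minus 0 min. Red bars are list medians, the blue line is the median of all 12735 genes (-0.03) and dashed lines mark 2-fold. Glucocorticoid-responsive genes had the highest median (1.34). The medians of the transporter (-0.10) and oxidative phosphorylation (-0.05) lists lay near the blue line and slightly to its left.

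The list with the largest shift was that of glucocorticoid-responsive genes. These are genes that cortisol or corticosterone switches on through the glucocorticoid receptor in many tissues. All 13 compared were higher in the 45 min kidney at day 3, 9 of them by 2-fold, and their median was 1.34. The lists were chosen with earlier results of these data known, so the rank of this list is a description only. Dusp1, Cdkn1a, Per1, Pdk4, Lcn2, Mt1 and Mt2 also belong to other lists, so they are not particular to glucocorticoids. The median was -0.21 for 45 min minus 0 min at day 1, and -0.06 for 60 min minus 0 min at day 3, a comparison that uses the same 0 min array. The 45 min day 3 kidney was the highest of the 6 in 8 of the 13. The 0 min kidney of day 3 was itself low for the list, with a median of -0.70 against the 0 min kidney of day 1. With the 0 min kidney of day 1 as control the list's median was 0.42 and 2 genes were 2-fold higher. With the mean of both 0 min kidneys it was 0.77, and 4 were 2-fold higher.

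Zbtb16, a zinc finger repressor, had the largest difference of the list with 1319 after 45 min, against 211 after 0 min (6.24 times). Its other intensities were 136 on the 60 min array of day 3 and 345, 439.6 and 706 after 0, 45 and 60 min at day 1, so the 45 min kidney of day 3 lay above every other array. The other Zbtb16 probe sets differed by 3.01 and 1.84. Other members, among them Fkbp5 and Tsc22d3, were picked out after their values were seen. Fkbp5, a co-chaperone that dampens the glucocorticoid receptor, had 5397 after 45 min, against 2091 after 0 min, and elsewhere 1395 on the 60 min array of day 3 and 3491, 2035 and 2817 after 0, 45 and 60 min at day 1. Tsc22d3, the anti-inflammatory leucine zipper GILZ, had 4304 after 45 min, against 1662 after 0 min, and elsewhere 1159 on the 60 min array of day 3 and 2897, 1897 and 1626 after 0, 45 and 60 min at day 1. For both genes the 45 min day 3 kidney was highest and the 0 min kidney of day 1 second. Dusp1, a phosphatase that switches off MAP kinases, had 5049 after 45 min, against 1989 after 0 min, while the other 4 arrays lay between 1760.5 and 2407.

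Pdk4, a kinase that turns off pyruvate dehydrogenase, had 1683 after 45 min, against 560.0 after 0 min, but the 0 min kidney of day 1 had 2631, so its sign turns to -0.64 with that kidney as control. The zinc-binding metallothioneins Mt2 and Mt1 had 10005 after 45 min, against 3146 after 0 min, and 11873 after 45 min, against 6241 after 0 min. Cdkn1a, the cell cycle inhibitor p21, had 934 after 45 min, against 322 after 0 min, and the clock gene Per1 had 584 after 45 min, against 261 after 0 min. Klf9 (0.27) and the kinase gene Sgk1 (0.40), which are bright in kidney, differed least. Outside the list, Depp1, a FOXO-induced regulator of autophagy, had 2175 after 45 min, against 354 after 0 min (6.14 times), and elsewhere 259 on the 60 min array of day 3 and 625, 743 and 495 after 0, 45 and 60 min at day 1. Igfbp1, a binding protein of insulin-like growth factors, had 1493 after 45 min, against 201 after 0 min, and elsewhere 132 on the 60 min array of day 3 and 363, 1318 and 570.4 after 0, 45 and 60 min at day 1, so it was high in the 45 min kidneys of both days and lowest in the 60 min kidney of day 3. Ddit4, an inhibitor of mTORC1, had 2531 after 45 min, against 1040.0 after 0 min, and the other 4 arrays lay between 957 and 1310.

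Clock genes differed as well. Of 17 compared, 13 were higher and 1 by 2-fold (Per1), with a median of 0.34, against 0.08 with the 0 min kidney of day 1 as control. The repressor Per2 (938 against 490.3) and the output factor Dbp (2762 against 1757) were higher in the 45 min kidney than in the 0 min kidney. Their activator Arntl (171 against 337) and its relative Npas2 (136 against 214) were lower. Between the 0 min kidneys, day 3 minus day 1, Per2 differed by -0.84, Dbp by -0.74 and Arntl by 0.75. The hour of collection is not given in the labels, and the part of time of day in the glucocorticoid-responsive genes was not tested.

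**Figure D3:**
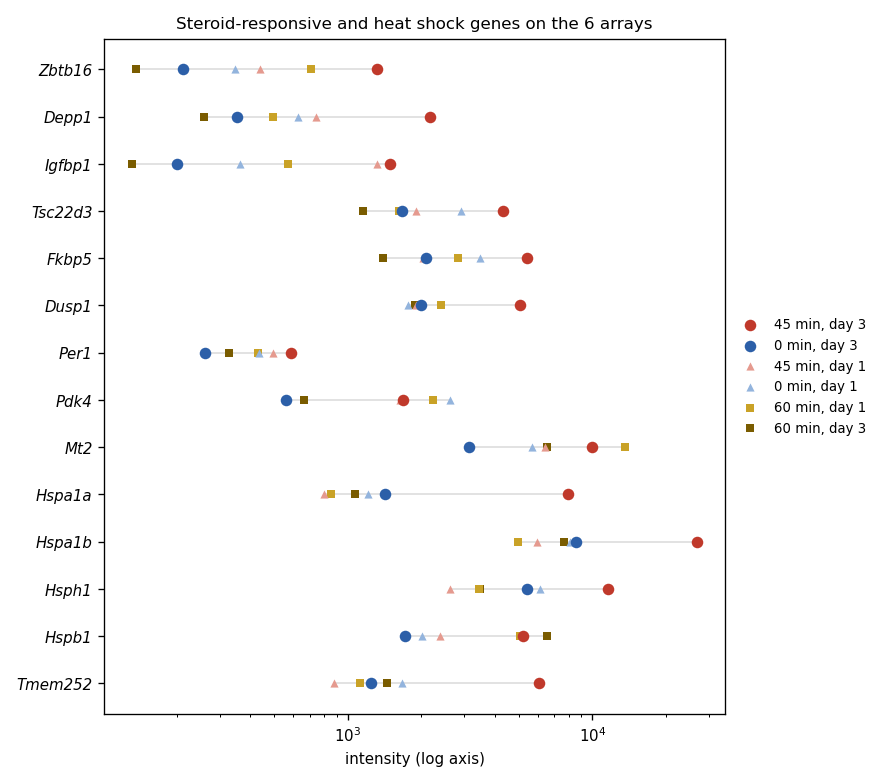
Intensity (log axis) of 14 genes on each of the 6 arrays; large circles are the day 3 arrays compared (red 45 min, blue 0 min), triangles the same clamp times at day 1 and squares the 60 min arrays. Hspa1a, Hspa1b, Tmem252, Dusp1 and Depp1 have the red circle alone at the right, whereas for Pdk4 and Per1 the blue circle lies at the left, next to the 60 min array of day 3.

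Heat shock genes stood apart mainly on the side of the 45 min kidney of day 3. For the glucocorticoid-responsive genes the 0 min kidney of day 3 was low as well. All 14 heat shock genes compared were higher than in the 0 min kidney, 4 by 2-fold, with a median of 0.37. In 12 of the 14 the 45 min kidney of day 3 was the highest of the 6 arrays. Their median was -0.50 at day 1, when 45 min was set against 0 min, and -0.23 for 60 min against 0 min at day 3. With the 0 min kidney of day 1 as control the median at day 3 was 0.49. Hspa1a, one of the stress-induced Hsp70 chaperones, had 7932 after 45 min, against 1424 after 0 min (5.57 times), and elsewhere 1067 on the 60 min array of day 3 and 1214, 797 and 857 after 0, 45 and 60 min at day 1. Hspa1b, its near-identical neighbour, had 26781 after 45 min, against 8619 after 0 min, and elsewhere 7639.9 on the 60 min array of day 3 and 8093, 5920.2 and 4970.1 after 0, 45 and 60 min at day 1. For both genes the 45 min day 3 array was more than 2-fold above each of the other 5. Probe sets may read both copies, so the intensities cannot be split between them with certainty, and the other Hspa1b probe sets differed by 1.87 and 2.04.

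Hsph1, a co-chaperone of Hsp70, had 11642 after 45 min, against 5424 after 0 min, and at day 1 it had the opposite order, 2626 after 45 min, against 6091 after 0 min. Hspb1, a small heat shock protein that guards actin, had 5192 after 45 min, against 1712 after 0 min, with 6561 after 60 min at day 3. The Hsp40 gene Dnaja1 had 20098 after 45 min, against 13164 after 0 min, and the constitutive Hspa8 and Hsp90aa1 differed by 0.27 and 0.40. The mitochondrial chaperonin gene Hspd1 differed by 0.08. Tmem252, a membrane protein gene, followed the Hsp70 genes in being high on 1 array, with 6084 after 45 min, against 1241 after 0 min and between 876 and 1661 on the other 4.

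The promoters of the 3 genes with the largest differences in the heat shock list are shown for the letters that heat shock factor binds. They are the 150 bases before the start on the gene's strand (RefSeq, GRCm38.p6), with capitals for every match to GAANNTTC, which reads the same on both strands as a pattern. The stretch of Hspa1a is chr17:34972157-34972306 and that of Hspa1b chr17:34959239-34959388, both on the - strand, and that of Hspb1 is chr5:135887769-135887918 on the + strand.
Hspa1a: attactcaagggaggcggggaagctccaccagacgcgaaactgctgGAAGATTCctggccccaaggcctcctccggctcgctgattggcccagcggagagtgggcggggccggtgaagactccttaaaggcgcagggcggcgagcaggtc
Hspa1b: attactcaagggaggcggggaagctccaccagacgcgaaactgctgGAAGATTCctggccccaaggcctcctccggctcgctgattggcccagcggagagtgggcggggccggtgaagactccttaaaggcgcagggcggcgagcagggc
Hspb1: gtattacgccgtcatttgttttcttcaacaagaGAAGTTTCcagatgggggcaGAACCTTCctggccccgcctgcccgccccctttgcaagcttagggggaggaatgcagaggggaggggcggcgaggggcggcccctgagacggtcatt
The Hspa1a and Hspa1b stretches were identical in 149 of 150 bases. A match stood in the 250 bases before the start in 6 of the 11 heat shock genes with a promoter (54.5%), against 6.22% of all 10269. This motif was chosen after the values were seen. For the glucocorticoid-responsive genes the receptor core letters AGAACA, also chosen afterwards and searched on both strands, stood in 2 of 12 promoters (16.7%), against 13.1% of all.

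Genes of the stress response of the endoplasmic reticulum leaned the same way. Of 24 compared 20 were higher and 1 reached 2-fold, with a median of 0.39, against -0.34 at day 1, and in 14 the 45 min day 3 kidney was the highest of the 6. The gene past 2-fold was Sesn2, a sensor of leucine, with 644 after 45 min, against 288 after 0 min. Herpud1, which serves the degradation of misfolded proteins, had 12102 after 45 min, against 6046 after 0 min, and the chaperones Hsp90b1 and Hspa5 differed by 0.87 and 0.57. Atf4, the transcription factor of the integrated stress response, differed by -0.05.

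Of 19 immediate early genes, which respond first to growth factors and stress, 15 were higher, 5 by 2-fold, and 1 was 2-fold lower. Egr2 had 166 after 45 min, against 42.2 after 0 min, Fos had 456 after 45 min, against 193 after 0 min, and Atf3 had 309 after 45 min, against 130.0 after 0 min. These 3 were higher still after 60 min at day 3, at 348, 844 and 783. Myc had 535 after 45 min, against 186 after 0 min, but the other 4 arrays lay between 401 and 1074, so that here the 0 min kidney of day 3 was the one apart. Nr4a2, the gene listed as lower, differed by -1.36 on its brightest probe set and by 0.56, 1.03 and 1.10 on the others past the filter, while the 2 below the filter gave 0.89 and -1.09.

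The transport program of the tubule differed little from that of the 0 min kidney of day 3, with a small lean to lower values. Of 36 proximal tubule transporters 0 were 2-fold apart in either direction, and their median was -0.10 (-0.19 after median centring, where all genes had -0.12). Among the 36, 24 were lower and 12 higher, where 45.5% of all genes were higher. Over all genes 2.24% were 2-fold apart, so a count of 0 in a list of this size is near that share. The median of the transporters was -0.06 at day 1 and -0.55 after 60 min at day 3. Slc34a1, the sodium-phosphate cotransporter, had 24702 after 45 min, against 24355 after 0 min, and the endocytic receptor Lrp2 had 17704 after 45 min, against 17630.2 after 0 min. The organic anion transporter genes Slc22a6 (10424 against 9903) and Slc22a8 (4199 against 5619) differed by 0.07 and -0.42. The lowest of the list were the amino acid exchanger gene Slc7a8 (-0.72) and the phosphate transporter gene Slc34a3 (-0.64).

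The 17 outer stripe genes, which mark the S3 segment, had a median of -0.04, which was 0.31 with the 0 min kidney of day 1 as control, against -1.12 after 60 min at day 3. Slc7a12, an amino acid transporter gene, was the one 2-fold higher, with 646 after 45 min, against 219 after 0 min, and 1449 after 45 min, against 157 after 0 min at day 1. The anion transporter gene Slc22a7 had 4056 after 45 min, against 8196 after 0 min, and Serpina1f had 1224 after 45 min, against 2527 after 0 min. Slc22a7 stood at 2079 in the 0 min kidney of day 1, so with that control it was higher by 0.96. Of 25 amino acid and gluconeogenesis genes and 29 oxidative phosphorylation genes 0 were 2-fold apart (against 2.24% of all genes), with medians of -0.09 and -0.05. In the same order 19 and 21 members were lower, where 45.5% of all genes were higher.

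Distal segments also had medians near that of all genes (-0.03). Of 18 thick ascending limb genes, 21 distal convoluted and connecting tubule genes and 17 intercalated cell genes, 0 were 2-fold apart, with medians of -0.09, 0.04 (-0.05 after median centring) and -0.04. In the same order 14, 10 and 12 members were lower, where 45.5% of all genes were higher. Umod, which encodes uromodulin, had 39076 after 45 min, against 34923 after 0 min, and the growth factor gene Egf had 23110.1 after 45 min, against 23566 after 0 min, where the 60 min kidney of day 3 had 5356. Bsnd, a chloride channel subunit, was lowest at -0.98. Prom2, a membrane glycoprotein gene, was the only principal cell gene of 18 past 2-fold, with 33.5 after 45 min, against 113 after 0 min. Endothelial (18), podocyte (11) and renin-angiotensin (7) genes had 0 members 2-fold apart. Over all genes 2.24% were 2-fold apart, so counts of 0 are near that share in lists this short.

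**Figure D4:**
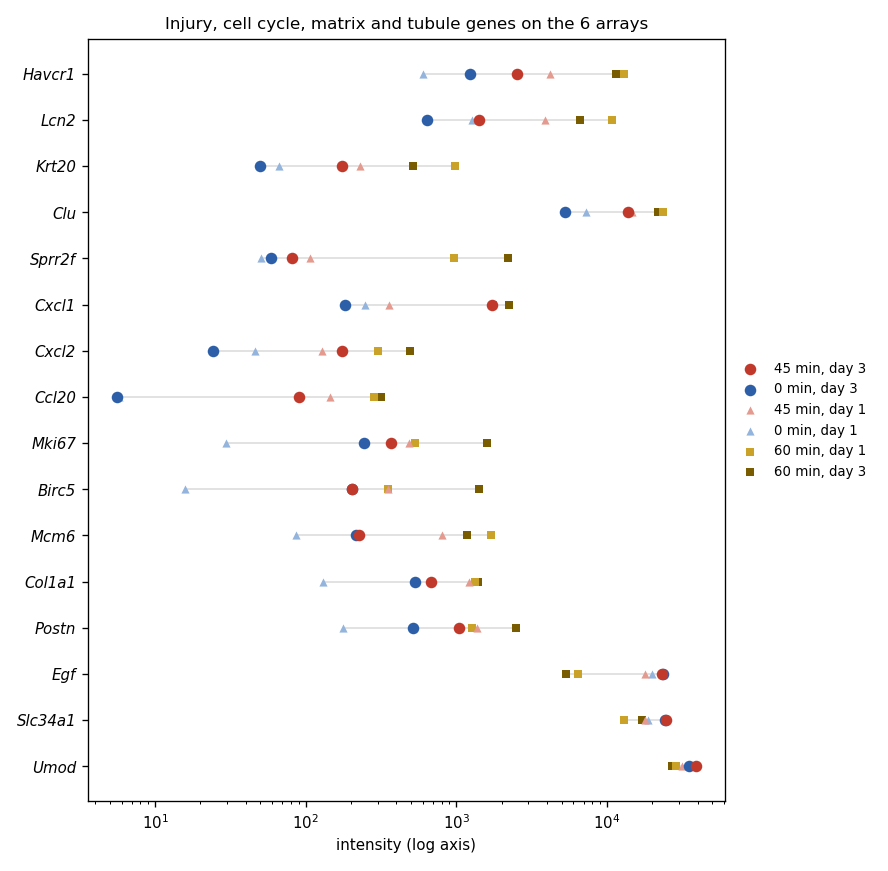
Intensity (log axis) of 16 genes on each of the 6 arrays, with large circles for the day 3 arrays compared (red 45 min, blue 0 min), triangles for day 1 and squares for 60 min. For Birc5, Mcm6, Egf, Slc34a1 and Umod the 2 circles touch, and for Mki67, Birc5 and Col1a1 both circles lie far right of the 0 min kidney of day 1.

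Cell division genes differed by less than 2-fold between the day 3 kidneys, and mitosis genes leaned higher after 45 min. Both day 3 kidneys stood above the 0 min kidney of day 1 in the medians of these genes. Of 23 mitosis genes 0 were 2-fold apart at day 3 (against 2.24% of all genes), with a median of 0.23. Among the 23, 18 were higher and 5 lower, where 45.5% of all genes were higher. At day 1, 20 were 2-fold higher after 45 min (against 3.56% of all genes), with a median of 1.92. The median of the 0 min kidney of day 3 over that of day 1 was 1.34, and with the 0 min kidney of day 1 as control the 45 min kidney of day 3 had a median of 1.51 and 16 genes 2-fold higher. With the mean of both 0 min kidneys these were 0.87 and 10. Mki67, the marker of cycling cells, had 370.1 after 45 min, against 244 after 0 min, and elsewhere 1609 on the 60 min array of day 3 and 29.6, 488 and 535 after 0, 45 and 60 min at day 1. Cdk1, the mitotic kinase, had 245 after 45 min, against 139 after 0 min, and 451 after 45 min, against 2.22 after 0 min at day 1. Birc5, which encodes survivin, had 203 after 45 min, against 202 after 0 min, and 355 after 45 min, against 15.8 after 0 min at day 1. Of 24 DNA replication genes 0 were 2-fold apart, with a median of 0.06 (-0.04 after median centring), against 1.44 at day 1. Among the 24, 14 were higher and 10 lower at day 3. The median of this list was 0.13 between the 0 min kidneys (day 3 minus day 1). With the 0 min kidney of day 1 as control it was 0.30 for the 45 min kidney of day 3. Both values were smaller than for mitosis genes, but single members stood higher. Mcm6, a subunit of the replicative helicase, had 226 after 45 min, against 215 after 0 min, and 799 after 45 min, against 85.9 after 0 min at day 1. Both day 3 intensities of Mcm6 thus lay above the 0 min kidney of day 1.

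Matrix genes stood between these patterns. Of 28 matrix and fibroblast activation genes 25 were higher, 2 by 2-fold, and their median was 0.48, against 1.20 at day 1. The 0 min kidney of day 3 was above that of day 1 by a median of 0.43, and with the 0 min kidney of day 1 as control the median was 0.88. With the mean of both it was 0.75. Thbs1, an activator of latent TGF-beta, had 1068 after 45 min, against 455 after 0 min, and the proteoglycan gene Vcan had 179 after 45 min, against 76.1 after 0 min. Their other probe sets past the filter differed by 0.81 and 0.46. Postn, a matricellular protein of activated fibroblasts, had 1038 after 45 min, against 517 after 0 min, and 1365 after 45 min, against 176 after 0 min at day 1. Col3a1 had 11019 after 45 min, against 5818 after 0 min, and Col1a1 had 684 after 45 min, against 535 after 0 min, with 131 in the 0 min kidney of day 1. The other Col1a1 probe set went the other way at day 3, with 209 after 45 min, against 264 after 0 min. Acta2, the smooth muscle actin of myofibroblasts, differed by 0.02.

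Genes picked for a large day 1 difference had smaller differences at day 3. They were picked by size on 1 array a side, so a smaller size on other arrays would follow from that choice alone. The fall therefore does not measure recovery. The 453 genes 2-fold higher after 45 min at day 1 had a median day 1 difference of 1.33, and their median at day 3 was 0.11 with an interquartile range of -0.20 to 0.46. Of these, 177 (39.1%) lay within 0.26 of 0 at day 3, against 61.8% of all genes, and 36 were 2-fold higher again. These 36 are 7.95% of the day 1 genes, where 1.45% of all genes were 2-fold higher at day 3. They are 19.5% of the 185 day 3 genes, where 3.56% of all genes were 2-fold higher at day 1. The days share 0 arrays, and over 12735 genes, which are not independent replicates, their differences had a Pearson r of 0.06 and a Spearman rho of 0.04. For the 135 genes 2-fold lower at day 1 the day 3 median was 0.06, and 6 were 2-fold lower again (4.44%, against 0.785% of all genes).

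Genes named for lasting differences were higher after 45 min on both days. Serpinb2, an inhibitor of urokinase, had 315 after 45 min, against 46.1 after 0 min, and 247 after 45 min, against 31.7 after 0 min at day 1. Ankrd1, a target of the Hippo effector YAP, had 291 after 45 min, against 76.3 after 0 min, and 243 after 45 min, against 71.0 after 0 min at day 1. Slc7a12, Ccl20, Igfbp1 and Krt20, given above, belong here too, as do the dim genes Hhat (1.52) and Bcl2l14 (1.45). The lasting lower genes were all dim, the brightest being Ppp1r3c, a glycogen-targeting subunit of protein phosphatase 1, with 70.2 after 45 min, against 164 after 0 min.

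**Figure D5:**
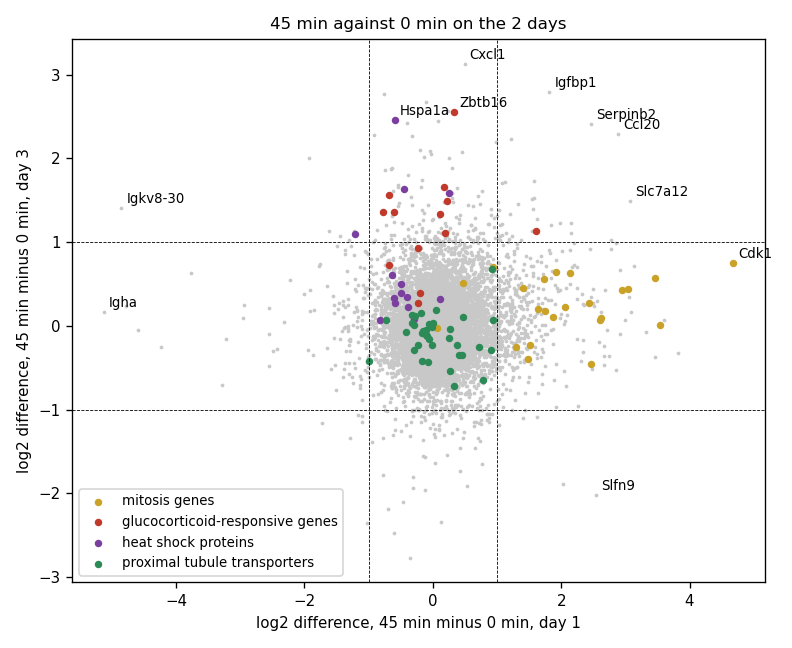
Each point is 1 of 12735 genes by its log2 difference of 45 min minus 0 min at day 1 (x axis) and at day 3 (y axis), and dashed lines mark 2-fold. Mitosis genes (yellow) spread along the x axis with day 3 values under 1, and transporters (green) lie near 0 on both. Glucocorticoid-responsive genes (red) spread along the y axis, as do some of the heat shock genes (purple), Hspa1a among them. The heat shock genes had medians of 0.37 at day 3 and -0.50 at day 1.

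Genes named for a return had a large day 1 difference and one under 0.26 in size at day 3, each against the 0 min kidney of the same day. Uhrf1, a reader of methylated DNA in S phase, had 159 after 45 min, against 141 after 0 min, and 629 after 45 min, against 59.7 after 0 min at day 1. Aplnr, the apelin receptor, had 2047 after 45 min, against 2195 after 0 min, and 4062 after 45 min, against 525 after 0 min at day 1. For both genes the 0 min kidney of day 3 lay well above that of day 1. Neither gene was back at the 0 min level of day 1 in the 45 min kidney of day 3. On the lower side, the immunoglobulin genes Igha and Jchain, products of plasma cells, had 12185 after 45 min, against 10885 after 0 min, and 2989 after 45 min, against 2534 after 0 min, at day 3. At day 1 they had 369 after 45 min, against 13435 after 0 min, and 137 after 45 min, against 4182 after 0 min. Low levels thus stood in the clamped kidneys of day 1 and in the 60 min kidney of day 3 (1587 for Igha), and the 45 min kidney of day 3 was with the 0 min kidneys.

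Genes named as late were apart at day 3 with a day 1 difference under 0.26. The lower ones included Fbxo42, Hmox1 and Nr4a2. The higher ones were Depp1, Mt2, Oit1, Maff, Gapdhs, Tgfb3, Sphk1 and Hs3st2. Sphk1, the kinase that makes sphingosine-1-phosphate, had 661 after 45 min, against 147 after 0 min, and the other 4 arrays lay between 319 and 751. Maff, a small Maf factor, had 284 after 45 min, against 39.1 after 0 min, and the others lay between 137 and 341. In these 2 genes, as in Oit1, Tgfb3 and Hs3st2, the 0 min kidney of day 3 was 2-fold under every other array, which held for 29 of the 185 higher genes, 24 of them with less than 200 on the brighter array. By contrast 7 genes were 2-fold over every other array in the 45 min day 3 kidney: Angptl7, Depp1, Dusp1, Hspa1a, Hspa1b, Noct and Tmem252. Inhbb, a subunit of activin B, had 714 after 45 min, against 90.9 after 0 min, but its second probe set differed by 0.42. For Dnajb5, an Hsp40 gene with a difference of 2.42, the second probe set past the filter gave 0.08.

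With the intensities as deposited the lower genes were fewer than the higher ones, and a smaller share of them was bright. Cyp4a14, a fatty acid hydroxylase driven by PPAR-alpha, had 407 after 45 min, against 1603 after 0 min, and 13595 after 45 min, against 16833 after 0 min at day 1, so the 2 days differed more than the clamp times. Cish, an inhibitor of cytokine signalling that STAT5 switches on, had 384 after 45 min, against 1355 after 0 min, and elsewhere 488 on the 60 min array of day 3 and 826, 476 and 672 after 0, 45 and 60 min at day 1. The 0 min kidney of day 3 was the highest of the 6 for Cish and the 45 min kidney of day 3 the lowest. Hmox1, the haem-degrading enzyme heme oxygenase 1, had 87.9 after 45 min, against 389 after 0 min, and 982 after 60 min at day 3. At day 1 Hmox1 had 175, 160 and 256 after 0, 45 and 60 min. Polr1b, a subunit of RNA polymerase I, had 66.4 after 45 min, against 338 after 0 min. Elsewhere Polr1b had 325 on the 60 min array of day 3 and 171, 120 and 207 after 0, 45 and 60 min at day 1. For both genes the 0 min kidney of day 3 thus lay above that of day 1. Fdps, an enzyme of the cholesterol pathway, had 249 after 45 min, against 584 after 0 min. Fbxo42, an F-box protein gene, had 77.2 after 45 min, against 457 after 0 min, with 457 or more on all other arrays, but its other probe sets differed by -0.27 and -0.38.

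Among the 12 lowest genes of the naming rule, Zfp712, Fbxw16, Ly6i, Utp14b, Slc6a12 and Slfn9 had intensities under 16 after 45 min and of 85.7 to 135 after 0 min. Of the 100 lower genes 17 were 2-fold under every other array. In 0 of the 21 lower genes with further probe sets past the filter did all of them reach 2-fold, against 18 of 49 among the higher genes.

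The 60 min kidney of day 3 shares its 0 min array with the 45 min kidney, so values are only set side by side. Against that array the medians were 0.69 after 45 min and 2.02 after 60 min for tubular injury markers. For NF-kB targets they were 0.79 after 45 min and 1.64 after 60 min, and for macrophage markers 0.39 after 45 min and 1.96 after 60 min. For mitosis genes they were 0.23 after 45 min and 2.34 after 60 min. Heat shock and glucocorticoid-responsive genes had the other order, with 0.37 after 45 min and -0.23 after 60 min for heat shock genes. For glucocorticoid-responsive genes the values were 1.34 after 45 min and -0.06 after 60 min. Havcr1 stood at 2548 after 45 min and 11483 after 60 min, and Zbtb16 at 1319 after 45 min and 136 after 60 min.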

How the data were processed

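Trizol-extracted RNA was labelled with a 3′ IVT kit, per the labels' protocols, and Affymetrix Expression Console is the tool per the submitters' processing notes. For its version and its way of summarising probes, the entry is: not given in the sources used here. Each deposited value is a linear intensity of 1 probe set on 1 array, scaled by the authors so that the mean after trimming the lowest and highest 2% is 500.003 on each of the 6 arrays, as the file shows. That scaling ties each gene to the bright ones. Arrays have no read depth, and 1 array per group limits the precision.

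Of 45101 probe sets, 64 were controls, 34945 had 1 symbol in the platform annotation, 932 had several and 9160 had none; 34754 matched the reference gene table by gene identifier, which changed 0 symbols. Each gene was read from the probe set whose log2(intensity + 16) averaged highest over the arrays, and was kept at or above the 40th percentile (log2 6.01). Adding 16 makes differences of dim genes smaller than their ratios. A difference was counted at 2-fold, with no test. Lists numbered 46, with 901 symbols; the array had 818 of these and 740 were compared, with 54 in more than 1 list. Of the list genes compared, 54 were 2-fold higher and 10 lower. The comparison, lists and settings were chosen with earlier results of these data known.

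Genes were named by rule: the 12 highest and 12 lowest; up to 4 per list by size; up to 8 per direction that lasted, came late or returned between the days; up to 6 that turned; and a set of injury, TNF, tubule, cell cycle and matrix genes. Predicted and unnamed genes were passed over. Other list members, and Angptl7 and Noct, were named after their values were seen. Promoters (RefSeq, GRCm38.p6) were found for 10269 genes. Python 3.11.15, numpy 2.4.6 and pandas 2.3.3 were used, and the calculation was tested on simulated data. Alternatives were 1 or 64 added before log2, quantile normalization, median centring, no filter, the 60th percentile, the mean of probe sets, other 0 min controls and, added after the data were seen, genes of at least 200 on the brighter day 3 array.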

Additional observations from a re-analysis of the deposited data

Results flagged for a closer look

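The results here are those whose 45 min minus 0 min difference had opposite signs at day 3 and day 1. Each day has 1 array a side, so the difference between the days was not tested, and genes were searched among all 12735. Values are the day 3 difference minus the day 1 difference, in log2. Among genes higher at day 3 and lower at day 1 it was 6.27 for the immunoglobulin gene Igkv8-30 (2472 after 45 min, against 918 after 0 min, at day 3), 3.93 for the dendritic cell factor Batf3 (147 after 45 min, against 24.7 after 0 min), 2.76 for Adam4, 2.52 for the vitamin E carrier gene Ttpa (996 after 45 min, against 465 after 0 min), 2.37 for Prrxl1, 2.33 for Saa1 and 2.31 for Hsph1. Among genes lower at day 3 and higher at day 1 it was -4.56 for Slfn9 (15.6 after 45 min, against 112 after 0 min), -3.91 for Wipf3 (21.5 after 45 min, against 123 after 0 min), -2.71 for Lhpp, -2.45 for B3gnt8, -2.24 for the cold-inducible RNA-binding protein gene Cirbp (287 after 45 min, against 592 after 0 min) and -2.22 for Ces1g. Slfn9, Wipf3, Batf3, Adam4, Prrxl1, Lhpp and B3gnt8 stayed under 200 on both day 3 arrays. List medians did the same for heat shock proteins, by 0.87 (0.37 at day 3 and -0.50 at day 1), and for endoplasmic reticulum stress genes, by 0.73 (0.39 at day 3 and -0.34 at day 1).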

How the results depend on the processing

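With 1 array a side, unreplicated 2-fold counts depend on how dim genes are treated. The 185 higher and 100 lower genes became 73 and 31 with 64 added before log2, 667 and 456 with no filter, 84 and 35 with the 60th percentile filter, 85 and 34 among genes of at least 200, and 291 and 162 with the 0 min kidney of day 1 as control. Lower genes numbered 154 with 1 added and 62 with probe sets averaged per gene. The 36 genes higher on both days became 10 with 64 added, 21 with median centring, 59 with no filter, 17 with the 60th percentile and 18 among genes of at least 200. The 6 genes lower on both days became 0, 34, 0 and 0 with 64 added, no filter, the 60th percentile and at least 200. Among the leading lists, the medians that moved most did so with the choice of control. With the 0 min kidney of day 1 they were 0.49 for NF-kB targets, 1.51 for mitosis, 0.88 for matrix and 0.42 for glucocorticoid-responsive genes, and with the mean of both 0 min kidneys 0.87 for mitosis, 0.75 for matrix and 0.77 for glucocorticoid-responsive genes. The median of the other 3 leading lists (tubular injury, heat shock, proximal transporters) moved by less than 0.25 under every alternative tried, though that of the transporters was 0.05 with the 0 min kidney of day 1. Other medians also moved with that control, to 1.08 for macrophage markers, 0.36 for complement and acute phase genes, 0.08 for clock genes and 0.31 for outer stripe genes.

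Of 92 genes named here that were past 2-fold, 49 stayed past it with the 0 min kidney of day 1 as control, 65 with 64 added, 81 with median centring and 85 with quantile normalization. Signs turned for these genes with the 0 min kidney of day 1 as control: Slfn9 (0.21), Saa1 (-1.78), Slc22a7 (0.96), Pdk4 (-0.64), Igkv8-30 (-0.25), Prrxl1 (-0.21), Ces1g (0.34), Lhpp (0.72) and B3gnt8 (0.21). Saa1 was -0.37 with the mean of both 0 min kidneys, and with the mean of probe sets Ccr2 was 0.31. The cause was not tested. No paired analysis was possible because each group holds 1 array. No array could be left out, since none would remain in its group.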

Other observations

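Major histocompatibility class II genes and perirenal fat markers were left out above. The class II genes Cd74 and H2-Aa had 1964 against 1177 and 3555 against 2252 after 45 min against 0 min at day 3, and 501 after 45 min, against 851 after 0 min, and 793 after 45 min, against 2024 after 0 min, at day 1, while H2-Ab1 differed at day 3 by -0.34 on its brightest probe set and by 0.16 and 0.34 on the others. Ucp1, the uncoupling protein of brown fat, had 498 after 45 min, against 189 after 0 min, at day 3, and 5 of the 7 fat markers compared were highest of the 6 arrays in the 45 min day 3 kidney. The 8 fat markers on the array summed to 19231 after 45 min and 15946 after 0 min, of which the fatty acid binding protein gene Fabp4 made 15435 after 45 min and 12901 after 0 min.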
